A study of Mus musculus with 4 samples.

Results

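The NF-kB subunits and inhibitors described here are 10 genes, chosen by symbol in the gene count table: the subunit genes NFKB1, NFKB2, REL, RELA and RELB, the inhibitor genes NFKBIA and NFKBIE, the nuclear IkB genes BCL3 and NFKBIZ, and TNFAIP3. Each had 1 of the 58735 gene rows, and all 10 were among the 15294 genes with enough reads to be tested. The RNA came from Jurkat cells, a line derived from a human T cell leukaemia and grown in medium with fetal bovine serum. One group is wild-type and the other is labelled as a CRISPR-Cas9 knockout of MATR3, the gene of the nuclear RNA-binding protein matrin 3. Each group held 2 libraries. The labels name no stimulus, and they do not say whether the libraries came from separate cultures or whether the knockout line is 1 clone. The p-values therefore measure only the spread between these libraries, which may be technical.

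NF-kB is a family of dimeric transcription factors built from RELA, RELB, REL and the processed products of NFKB1 (p50, from p105) and NFKB2 (p52, from p100). In resting cells the dimers are held in the cytoplasm by IkB proteins. Receptor signals activate the IKK kinases, which mark IkB for degradation (the canonical route) or trigger processing of p100 (the non-canonical route, which works mainly through RELB and p52). Several inhibitors, among them NFKBIA and TNFAIP3, are themselves induced by NF-kB and so close a feedback loop. In T cells the antigen receptor reaches this pathway through protein kinase C theta, BCL10 and MALT1.

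The libraries held 15008554 to 17477643 counted reads. The targeted gene gave no check of the labels. MATR3 has 2 overlapping rows, how reads in the overlap were assigned is not known here, and its larger row had 9 and 19 wild-type reads but 42 and 61 reads under the knockout label. The group is therefore called the labelled knockout. All 12 listed T cell markers were expressed well enough to be tested, 11 fell and 0 rose, and their summed level was 3163 to 3399 CPM (read counts scaled to a common library size with TMM factors) in wild-type and 1379 to 1413 CPM in the labelled knockout. Myeloid markers moved the other way. Of 14 listed, 12 were tested, 4 of them expressed enough in wild-type alone, and 11 were higher. Their summed level went from 109 to 111.7 CPM to between 5407 and 5529 CPM, and single genes carried most of it. MPO, the granule enzyme myeloperoxidase, stood at 8.5 and 9.36 CPM in wild-type and at 4972 and 4867 CPM in the labelled knockout. AIF1, which did not pass the test, made up most of the wild-type sum, at 71.6 and 78.3 CPM. Of the defining myeloid genes, chosen after their values were seen, ELANE and CSF3R had 0 reads in wild-type, and CD68 had at most 1 read in any library. Of 8 epithelial markers listed, 4 were tested, 2 of them expressed enough in wild-type alone, and 4 were higher. Most of their sum was the keratin genes KRT18, at 3.90 and 3.52 CPM and then 87.3 and 85.3 CPM, and KRT8, at 9.13 and 7.29 CPM and then 35.0 and 37.9 CPM. The defining genes EPCAM and KRT19 had 0 reads in every library and CDH1 at most 1. Mitochondrially encoded genes were also higher, 13 of 13, at 45460 to 51210 CPM in wild-type and 88641 to 91134 CPM in the labelled knockout. These shifts stood in the same 2 libraries as every difference below, and their part in those differences was not tested. In bulk RNA, fewer cells of a type and less RNA per cell cannot be told apart.

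RNA of most of the NF-kB genes was higher in the labelled knockout. By edgeR's quasi-likelihood test, with an adjusted p under 0.05 over all genes, 8 of the 10 rose and 0 fell. Over all genes tested, 66.0% were called, 33.7% as higher and 32.3% as lower. The median log2 fold change was 0.68 for the 10 genes and 0.02 for all genes tested. Of the 10, 4 rose at least 2-fold (BCL3, NFKBIZ, RELB and REL), against 15.6% of all genes tested. The groups did not overlap for any of the 10, with 9 higher and 1 lower, and such separation was common in this comparison, at 82.0% of genes, 41.6% higher and 40.4% lower. At an unadjusted p under 0.05 the count of falls was also 0, but NFKB1 missed that threshold barely (unadjusted p = 0.05002, edgeR). Leaving out the TMM composition factor put 1 gene (NFKB1) past the adjusted threshold as lower. Without wild-type replicate 2 the log2 fold change of NFKB1 was -0.21, against -0.16 in the main test. All 10 genes passed the read filter in wild-type alone, so no member entered the test only through the group where it was high.

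**Figure D1:**
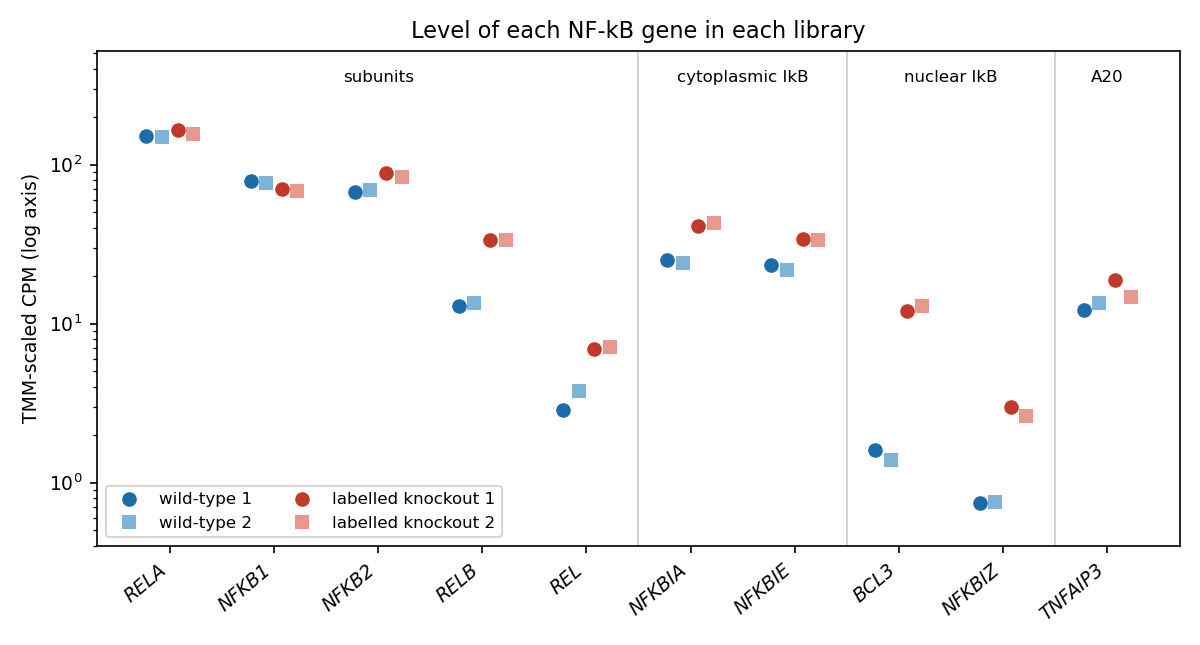
Level of each gene in TMM-scaled CPM on a log axis, 1 point per library, with circles for replicate 1 and squares for replicate 2, wild-type in blue and the labelled knockout in red. The red points lie above the blue ones for every gene except NFKB1, and the gap is widest for BCL3, at 1.38 and 1.61 against 11.9 and 12.9 CPM.

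RELA, the transactivating subunit p65 of the main canonical dimer (chromosome 11, 65653596 to 65663094; positions are the table's, on a build that the sources do not name), was the most abundant of the 5 subunits and changed little. It stood at 150.9 and 148.5 CPM in wild-type and at 164.3 and 156.6 CPM in the labelled knockout. Its log2 fold change of 0.10 (SE 0.072, adjusted p = 0.22, edgeR) did not pass the test, and the 95% interval ran from -0.04 to 0.24. Without wild-type replicate 1 the adjusted p was 0.0405, in a range of 0.0405 to 0.695 over the other settings tried.

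NFKB1, the precursor of p50 (chromosome 4, 102501329 to 102617302), was the 1 gene with lower values in the labelled knockout. It stood at 79.2 and 76.1 CPM in wild-type and at 70.5 and 68.2 CPM in the labelled knockout, so the groups were close but did not overlap. The change was -0.16 on the log2 scale (SE 0.082, adjusted p = 0.0729, edgeR), with a 95% interval from -0.33 to 1.8e-05. Without wild-type replicate 2 the adjusted p became 0.0143, and the range over the other settings was 0.0143 to 0.412.

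NFKB2, the p100 precursor of p52 (chromosome 10, 102394110 to 102402529), rose modestly. Its values were 67.6 and 69.2 CPM in wild-type and 88.6 and 84.0 CPM in the labelled knockout, a mean 1.26-fold higher. The change was 0.34 on the log2 scale (SE 0.081, adjusted p = 0.000214, edgeR). Without replicate 1 of the labelled knockout the change was 0.30 and the adjusted p was 0.0512, the highest of the settings tried, whose lowest was 2.59e-05.

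RELB, the non-canonical partner of p52 (chromosome 19, 45001430 to 45038198), rose most among the subunits. It went from 12.9 and 13.4 CPM in wild-type to 33.8 and 33.4 CPM in the labelled knockout. Replicates lay within 1.04-fold of each other in both groups, and the means differed 2.55-fold. On the log2 scale the change was 1.35 (SE 0.139, adjusted p = 4.41e-14, edgeR), larger than that of 88.9% of all genes tested.

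REL, or c-Rel, a subunit with prominent roles in lymphocyte activation (chromosome 2, 60881521 to 60931610), also rose, from a low level. It had 50 and 60 reads (2.87 and 3.77 CPM) in wild-type and 101 and 106 reads (6.89 and 7.15 CPM) in the labelled knockout. The wild-type libraries differed 1.31-fold from each other, the widest replicate gap among the 10 genes, and both stayed below the labelled knockout. On the log2 scale this was 1.08 (SE 0.237, adjusted p = 4.75e-05, edgeR).

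**Figure D2:**
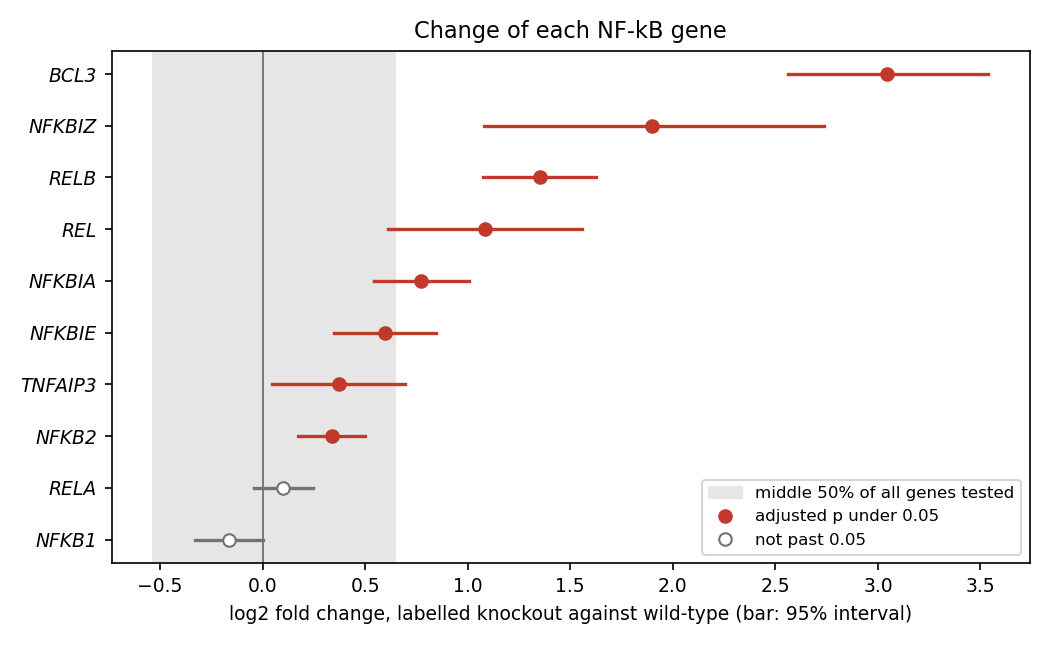
Log2 fold change of each gene, labelled knockout against wild-type, with its 95% interval as a bar, filled red where the adjusted p was under 0.05. The grey band holds the middle 50% of all genes tested, from -0.53 to 0.64, and BCL3, NFKBIZ, RELB, REL and NFKBIA have their estimates above it.

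The cytoplasmic inhibitor genes among those chosen, NFKBIA and NFKBIE, both rose. This does not hold for all cytoplasmic IkB genes. NFKBIB, the gene of IkB beta, was not among those chosen and fell from 81.3 mean CPM in wild-type to 60.6 in the labelled knockout. NFKBIA encodes IkB alpha, which retains canonical dimers in the cytoplasm and is resynthesised after activation (chromosome 14, 35401511 to 35404749). It went from 25.03 and 24.1 CPM to 41.1 and 42.9 CPM, with a log2 fold change of 0.77 (SE 0.116, adjusted p = 1.65e-08, edgeR). NFKBIE, encoding IkB epsilon, a related cytoplasmic inhibitor (chromosome 6, 44258166 to 44265788), went from 23.3 and 21.6 CPM to 34.2 and 33.7 CPM. Its change was 0.60 on the log2 scale (SE 0.125, adjusted p = 2.24e-05, edgeR). For both genes the labelled knockout libraries lay above both wild-type libraries by more than the replicates differed, and the 95% intervals of the 2 changes, 0.54 to 1.00 and 0.35 to 0.85, overlapped. A test of the difference between them was not run.

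The nuclear IkB genes had the largest changes of the 10. BCL3 encodes an IkB-related protein that binds p50 or p52 homodimers in the nucleus and can activate or repress with them (chromosome 19, 44747705 to 44760044). It had 28 and 22 reads in wild-type, against 175 and 191 reads in the labelled knockout, or 1.61 and 1.38 against 11.9 and 12.9 CPM. The means differed 8.30-fold, and the log2 fold change of 3.04 (SE 0.245, adjusted p = 7.63e-19, edgeR) was larger than that of 95.3% of all genes tested. NFKBIZ encodes IkB zeta, a nuclear coregulator that is itself induced by NF-kB (chromosome 3, 101827991 to 101861022). It was the scarcest of the 10, with 13 and 12 reads in wild-type, against 44 and 39 in the labelled knockout. The corresponding levels were 0.746 and 0.754 against 3.0 and 2.63 CPM, with a log2 fold change of 1.90 (SE 0.415, adjusted p = 4.37e-05, edgeR). With so few reads its 95% interval was wide, from 1.08 to 2.74, and both nuclear genes were called in each of the 16 other settings tried.

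TNFAIP3 encodes A20, a ubiquitin-editing enzyme that restrains signalling upstream of the IKK kinases (chromosome 6, 137867188 to 137883312). It stood at 12.2 and 13.6 CPM in wild-type and at 18.7 and 14.6 CPM in the labelled knockout. The first of the labelled knockout libraries was clearly above wild-type, whereas the second was only slightly above wild-type replicate 2. The log2 fold change of 0.37 (SE 0.163, adjusted p = 0.0400, edgeR) passed the test narrowly. It fell to 0.18 (adjusted p = 0.527) without replicate 1 of the labelled knockout and to 0.32 (adjusted p = 0.118) without wild-type replicate 1. DESeq2 gave an adjusted p of 0.111, and the range over the settings tried was 0.0194 to 0.527. Of the 8 called genes, TNFAIP3 and NFKB2 were those whose call was lost when 1 library was left out.

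**Figure D3:**
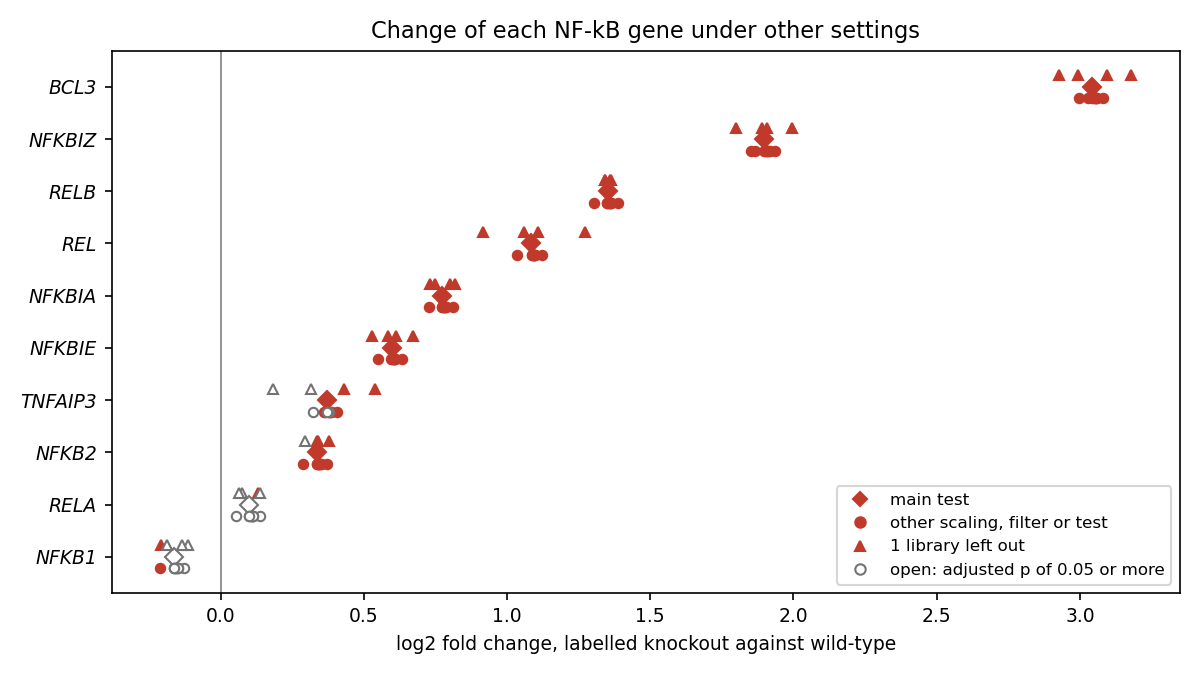
Log2 fold change of each gene under the main test (diamonds), other scalings, filters and tests (circles) and with 1 library left out (triangles), where open symbols have an adjusted p of 0.05 or more. No symbol crosses 0, and TNFAIP3, NFKB2, RELA and NFKB1 have both open and filled symbols.

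Levels of different genes were compared per length, as CPM per kilobase of the gene length given in the table. In wild-type the order was RELA (27.4 ± 0.316), NFKB2 (15.3 ± 0.241), NFKB1 (12.4 ± 0.357), NFKBIA (10.4 ± 0.271), NFKBIE (8.70 ± 0.466), RELB (4.34 ± 0.122), TNFAIP3 (2.55 ± 0.188), BCL3 (0.461 ± 0.0492), REL (0.252 ± 0.0482) and NFKBIZ (0.127 ± 0.000891; SD, n = 2 throughout), with no overlap between neighbours. In the labelled knockout both inhibitors stood above NFKB1, NFKBIA at 17.7 ± 0.520 and NFKBIE at 13.2 ± 0.146 CPM per kilobase. There NFKB1 (11.1 ± 0.260) and RELB (11.1 ± 0.0759) could not be told apart, and neither could BCL3 (3.83 ± 0.205) and TNFAIP3 (3.30 ± 0.569). REL has the longest row of the 10, at 13170 bases, and its CPM is divided by that whole length.

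The mixture of subunit RNA shifted toward RELB. Of the summed CPM per kilobase of the 5 subunits, RELB made up 7.11% and 7.45% in wild-type, against 15.3% and 15.8% in the labelled knockout. NFKB1 went from 21.2% and 20.4% to 15.5% and 15.6%, and RELA from 46.2% and 45.7% to 41.3% and 41.0%. The NFKB2 share was 25.2% and 25.9%, then 27.2% and 26.8%, so the non-canonical pair RELB and NFKB2 together went from 32.8 ± 0.753% to 42.5 ± 0.0906% (SD, n = 2 each). The sum over the 5 subunits itself was 1.20-fold higher in the labelled knockout. The groups did not overlap for any of these shares, but with 2 libraries against 2 an exact two-sided permutation test cannot give a p below 0.333.

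The balance among the inhibitors within the 10 genes moved as well. NFKBIA and NFKBIE together stood at 19.6 and 18.5 CPM per kilobase in wild-type and at 30.6 and 31.1 in the labelled knockout, which raised their ratio to the summed subunits from 0.319 ± 0.0110 to 0.433 ± 0.0176 (SD, n = 2 each). This ratio leaves out NFKBIB, the gene of IkB beta, which is not among the 10. NFKBIB had more CPM than NFKBIA or NFKBIE in every library and fell from 81.3 ± 5.35 to 60.6 ± 3.67 CPM, over a row of 2324 bases. The rise of the ratio therefore holds for NFKBIA and NFKBIE only, not for all IkB genes. BCL3 and NFKBIZ together went from 0.622 and 0.554 to 4.19 and 4.42 CPM per kilobase. Relative to the cytoplasmic pair, the nuclear pair went from a ratio of 0.0308 ± 0.00134 to 0.139 ± 0.00351 (SD, n = 2 each). The nuclear pair thus remained the smaller of the 2 pairs in every library (exact permutation p = 0.333 for each ratio, the smallest this design allows). This pair leaves out NFKBID, another nuclear IkB gene, which did not pass the test. NFKBID stood at 11.71 and 10.24 CPM in wild-type, against 2.35 and 2.14 CPM for BCL3 and NFKBIZ together. In the labelled knockout NFKBID stood at 11.05 and 9.84 CPM, against 14.94 and 15.51 CPM for the pair. The rise of the nuclear pair therefore holds for BCL3 and NFKBIZ only.

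**Figure D4:**
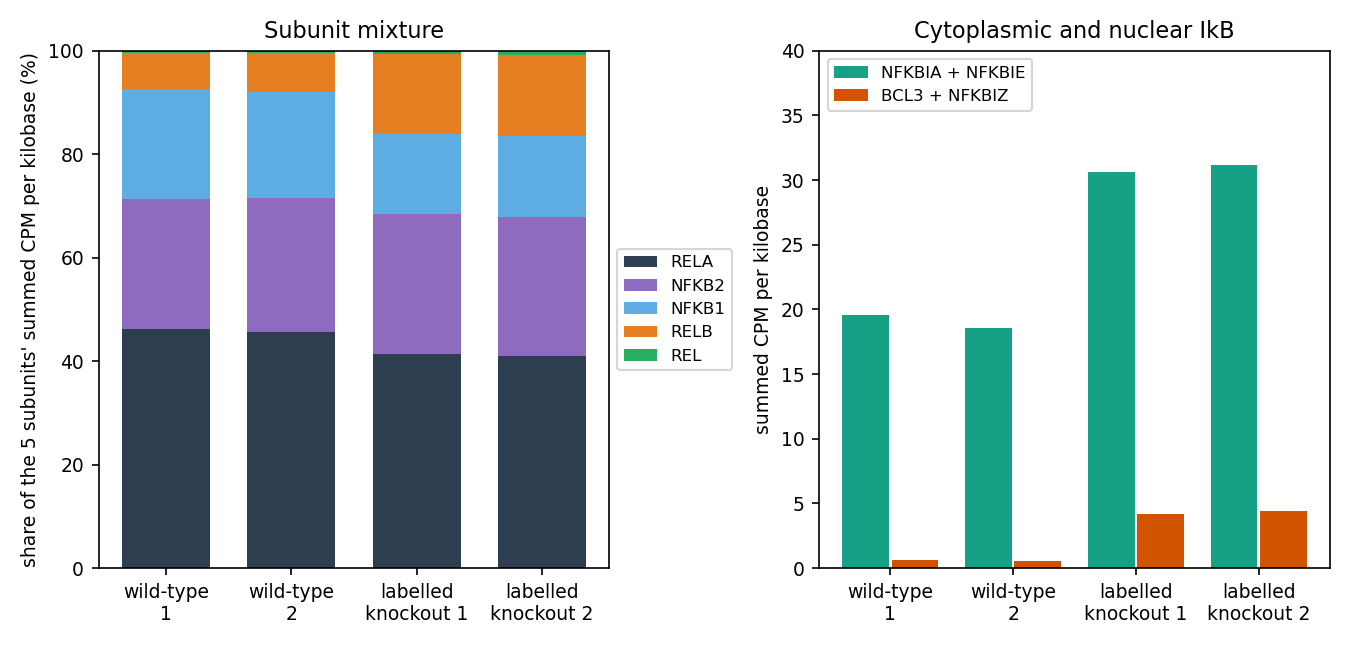
Left, share of each subunit in the summed CPM per kilobase of the 5 subunits in each library, in percent. Right, summed CPM per kilobase of NFKBIA and NFKBIE (green) and of BCL3 and NFKBIZ (orange). RELB takes 7.11% and 7.45% of the subunit sum in wild-type and 15.3% and 15.8% in the labelled knockout.

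BCL3 and RELB lie on the same arm of chromosome 19, 241385 bases apart. Of the 6 tested protein-coding genes between them, 1 was higher and 2 lower, with a median log2 fold change of 0.16. BCAM, the tested gene next to BCL3 toward RELB, which encodes a laminin-binding surface glycoprotein, rose from 1.5 to 5.5 mean CPM, while CLPTM1, next to RELB, fell from 206 to 135.8 mean CPM. Among the 5 tested protein-coding neighbours on each side, 2 of 10 were higher and 1 lower around BCL3, and 2 were higher and 5 lower around RELB. These 2 windows share NECTIN2, TOMM40, APOE and APOC1. Over all genes tested, 33.7% were higher and 32.3% lower. Around NFKBIZ, 7 of 10 neighbours were higher and 1 lower (median 0.71), around TNFAIP3 8 and 0 (0.80), around REL 7 and 2 (0.59) and around NFKB1 6 and 1 (0.62). The other windows had 3 higher and 5 lower around NFKB2 (median -0.21), 3 and 4 around RELA (-0.30), 4 and 4 around NFKBIE (0.15) and 3 and 0 around NFKBIA (0.14). The windows differ widely in span, from 101574095 to 108222570 around NFKBIZ but only from 102107560 to 102477045 around NFKB2. The change of TNFAIP3, at 0.37, was below the median of its neighbours, and that of NFKB1, at -0.16, was too.

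Overlapping gene rows held few reads. An antisense row, AL357060.1, shares 1046 bases with TNFAIP3 and had 24 and 21 reads in wild-type, against 10 and 12 in the labelled knockout, and AP001362.2 shares 9 bases with RELA. The strand setting of the counting is not known here, so reads of such partners cannot be told apart. No other member overlapped a row with reads.

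The deposited annotation assigns the 5 subunits to the Rel homology family together with 5 NFAT genes, which share this DNA-binding fold. The NFATC genes among them, but not NFAT5, are calcium-responsive factors of T cell activation. Of the NFAT genes, 4 rose and 0 fell (median log2 fold change 0.51). NFAT5, the osmotic stress member, changed most, from 12.6 ± 2.62 to 31.6 ± 0.694 CPM (SD, n = 2 each). NFATC3 and NFATC2 were at 0.63 and 0.50 and NFATC4 at 0.51 on the log2 scale, whereas NFATC1, at 72.8 ± 4.79 and 74.5 ± 2.15 CPM, did not pass the test (adjusted p = 0.736, edgeR).

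Other genes of the pathway were read from lists chosen by function, and their calls can be set against the same background of 33.7% higher and 32.3% lower. Of the 3 remaining IkB-related genes, NFKBIB (IkB beta) fell from 81.3 ± 5.35 to 60.6 ± 3.67 CPM, opposite in direction to NFKBIA and NFKBIE. NFKBIL1, a more distant relative, rose from 18.7 ± 0.297 to 26.4 ± 2.38 CPM (SD, n = 2 each), a call lost without replicate 1 of the labelled knockout (adjusted p = 0.0811). NFKBID did not pass the test (log2 fold change -0.07).

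Of 11 ligand genes tested, 4 rose and 3 fell, and 8 of the 11 passed the read filter in wild-type. IL18 and TNFSF13B, the latter named after its values were seen and with 0 wild-type reads, entered the test only through the labelled knockout, where they were high. TNF, the prototype activator of canonical signalling, rose from 3.08 ± 0.705 to 9.61 ± 2.14 CPM, and TNFSF9 fell from 35.4 ± 0.170 to 26.2 ± 2.57 CPM (SD, n = 2 each), a call lost without replicate 2 of the labelled knockout (adjusted p = 0.118). IL18, a cytokine of the interleukin-1 family, had 1 and 0 reads in wild-type, against 196 and 211 in the labelled knockout. The other falls, chosen after their values were seen, were the lymphotoxin genes LTA and LTB, at -1.98 and -0.87 on the log2 scale. LTA had 49 and 63 reads in wild-type, against 5 and 20 in the labelled knockout. LTB had 99 and 63 reads in wild-type, against 35 and 43 in the labelled knockout.

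Among receptors, 17 of 26 were tested, with 10 higher and 3 lower and a median log2 fold change of 1.45. Only 10 of the 17 passed the read filter in wild-type, so the others were tested through the group where they were high, and the median is given as a description only. TNFRSF1B, a TNF receptor of lymphocytes and myeloid cells, rose from 1.92 ± 0.0477 to 35.0 ± 1.44 CPM (SD, n = 2 each). LTBR, the lymphotoxin receptor that drives the non-canonical route and is scarce on T cells, had 2 reads in each wild-type library and 361 and 349 in the labelled knockout. IL1RAP, the shared chain of interleukin-1 receptors, rose from 3.57 ± 0.820 to 24.0 ± 1.43 CPM. Among the receptors that fell, TNFRSF8 (CD30) went from 91.4 ± 3.01 to 22.6 ± 0.907 CPM and TNFRSF4 (OX40) from 40.02 ± 3.56 to 20.6 ± 0.459 CPM (SD, n = 2 each). LTBR, TNFRSF1B and IL1RAP are expressed by myeloid cells. RNA of most tested myeloid markers rose in the same 2 libraries, and its part in these differences was not tested.

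Adaptors act below these receptors. Of 8 MYD88 and IRAK adaptors tested, 5 fell and 2 rose. Of the 8, 7 passed the read filter in wild-type, while IRAK3, 1 of the rises, was tested only through the labelled knockout. MYD88, the adaptor of Toll-like and interleukin-1 receptors, fell from 132.7 ± 3.99 to 59.0 ± 0.326 CPM, TICAM1 from 39.3 ± 3.06 to 19.8 ± 2.09 CPM and TOLLIP from 104.3 ± 9.79 to 58.9 ± 2.39 CPM (SD, n = 2 each). IRAK1 was at -0.39 on the log2 scale. IRAK3, an inhibitory member found mainly in monocytic cells, had 2 and 1 reads in wild-type, against 326 and 327 in the labelled knockout. The count of rises was 1 without wild-type replicate 1 or without either labelled knockout replicate. Of 12 TRAF and IAP adaptors, 3 rose and 4 fell. Of the 12, 11 passed the read filter in wild-type, while RIPK2, 1 of the rises, was tested only through the labelled knockout. TRAF3, which holds the non-canonical kinase NIK in check, fell from 140.0 ± 0.754 to 87.5 ± 2.34 CPM, and TRAF4 from 139.5 ± 10.6 to 82.5 ± 1.64 CPM. BIRC2 and BIRC3, ubiquitin ligases that act with TRAF proteins, rose by 0.82 and 0.93 on the log2 scale. RIPK2, the kinase below NOD receptors, had 0 reads in wild-type, against 154 and 191 in the labelled knockout, at least 129.9-fold higher when 3 reads in all are allowed to wild-type. Without wild-type replicate 2 the rises numbered 5, and without replicate 1 of the labelled knockout the falls numbered 2.

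Of 12 genes of the IKK complex and its kinases, 6 rose and 3 fell, with a median log2 fold change of 0.47. The rises were led by the regulators TANK, from 8.18 ± 1.75 to 20.9 ± 0.451 CPM, and TAB2, from 17.1 ± 2.32 to 39.6 ± 1.93 CPM (SD, n = 2 each). AZI2, TBK1 and MAP3K7 were at 1.00, 0.95 and 0.79 on the log2 scale. Among genes outside the naming rule, the catalytic IKK genes CHUK and IKBKB did not pass the test (log2 fold changes 0.23 and -0.06). Chosen after their values were seen, the 3 falls were IKBKG (-0.60), the scaffold NEMO, MAP3K14 (-0.53), the kinase NIK, and IKBKE (-0.33), and without replicate 2 of the labelled knockout the falls numbered 1.

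Ubiquitin enzymes of the pathway were mixed. Of the 3 linear ubiquitin ligase genes, RNF31 rose from 43.8 ± 1.29 to 66.9 ± 0.837 CPM and SHARPIN fell from 69.0 ± 3.54 to 54.1 ± 0.0318 CPM. Of 10 deubiquitinases and A20 partners tested, 6 rose and 3 fell (median 0.45). OTUD7B, an A20-related deubiquitinase, rose from 12.1 ± 1.92 to 44.8 ± 0.803 CPM and TAX1BP1, an A20 adaptor, from 24.6 ± 4.40 to 61.9 ± 2.29 CPM (SD, n = 2 each). The A20-binding genes TNIP1 and TNIP2 went in opposite directions, at 0.54 and -0.64 on the log2 scale, and N4BP1 was at 0.51.

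On the route from the T cell receptor, PRKCQ, protein kinase C theta, fell from 48.1 ± 2.63 to 28.7 ± 1.68 CPM. CARD9, a scaffold of myeloid cells, rose from 3.25 ± 0.461 to 70.8 ± 1.59 CPM (SD, n = 2 each). BCL10, an adaptor that binds MALT1, was at 0.73 and CSNK1A1 at 0.85 on the log2 scale, and MALT1 did not pass the test (0.34, adjusted p = 0.111, edgeR). T cell markers were lower and myeloid markers higher in the same 2 libraries, as given above, and their part in these differences was not tested.

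Of 42 listed NF-kB target genes, 24 rows were tested, 15 rose and 6 fell (median log2 fold change 0.82), and 19 of the 24 passed the read filter in wild-type. The others (CXCL2, CCL2, CD69, BCL2A1 and MMP9) were tested through the labelled knockout, where they were high, and all are among the rises. The count of rises and the median are therefore given as a description only. The named rises were the chemokine genes CCL5 (5.31) and CXCL8 (5.11), the cyclin gene CCND1 (2.65), the protease gene PLAU (2.28) and the AP-1 gene JUNB (1.6, from 52.4 ± 5.37 to 158.4 ± 1.28 CPM). Chosen after their values were seen, the falls were CCR7 (-1.16), CD83 (-1.0), BCL2L1 (-0.96), IER3 (-0.69), ICAM1 (-0.43) and SOD2 (-0.35). Thus well-known targets stood on both sides. IL2, IL2RA and IL6 had 0 reads in each of the 4 libraries.

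**Figure D5:**
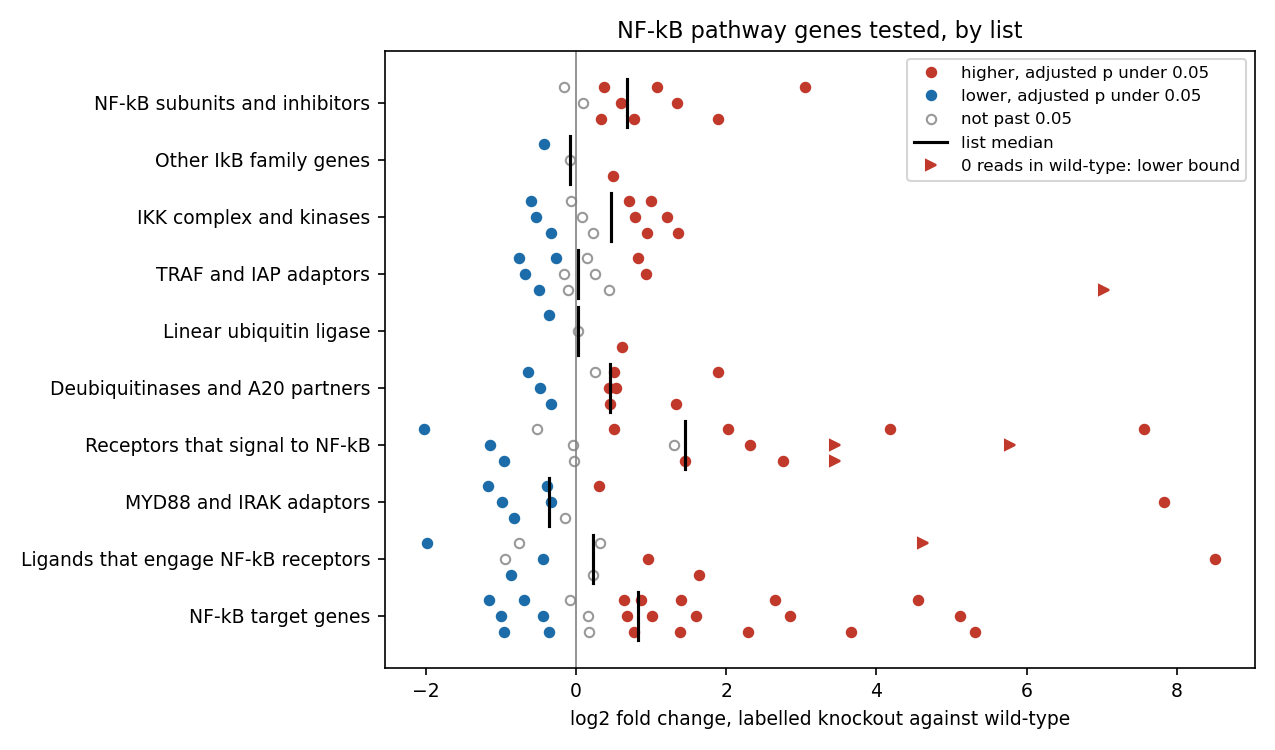
Log2 fold change of each tested gene in the NF-kB set and in 9 other pathway lists, red for higher, blue for lower and open for genes not past an adjusted p of 0.05, with the list median as a black bar. Arrowheads mark genes with 0 reads in wild-type, drawn at their lower bound. The NF-kB subunits and inhibitors have 8 red and 0 blue points, and the 9 other lists drawn have both, while the NFAT branch, with 4 higher and 0 lower, is not drawn.

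The gene profiles nearest to BCL3, the member with the largest rise, belonged to AHRR, CYTH4 and HSPG2. Likeness was the Euclidean distance over the 4 libraries between log2(CPM + 1) values centred on their own mean, and the 3 distances were 0.0720, 0.0828 and 0.115. AHRR, the aryl hydrocarbon receptor repressor, went from 9.91 ± 0.60 to 56.1 ± 0.446 CPM, CYTH4 from 7.92 ± 0.896 to 48.5 ± 1.08 CPM and HSPG2 from 2.79 ± 0.0348 to 19.7 ± 0.115 CPM (SD, n = 2 each). The 4 libraries fall into 2 groups, so a small distance mainly says that the difference between the groups was of like size.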

How the data were processed

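The authors deposited raw, unnormalized read counts for each gene, 1 column per library, matched to samples by the short name in each description. Per the submitters' processing notes, the tools were CASAVA 1.8, HISAT2 2.0.5 and featureCounts 1.5.0-p3. The sources used here do not give their settings, the genome build, the strand setting or the treatment of multiply mapped reads. The organism is labelled as mouse, but every row has a human Ensembl identifier and the line is human. The sequence tables at hand were mouse, so no sequence is shown. Gene lengths (the table's other numeric column), coordinates and symbols are those the authors deposited.

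Counts were tested with edgeR 4.0.16 in R 4.3.3 (TMM factors 0.978 to 1.04, minimum 10 counts and 15 in total, two-sided quasi-likelihood test, no covariate, Benjamini-Hochberg adjustment over 15294 genes, threshold 0.05). Standard errors and 95% intervals are those of the log2 fold change. The floor of 3 reads covers counting error only. No 2 libraries were duplicates: the chi-square between replicates, per gene with 20 reads or more, was 5.83 for wild-type and 2.21 for the labelled knockout.

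The members and lists were chosen with earlier results of these data known. Named genes are all members, up to 5 genes per pathway list with the largest change among those called, without overlap between groups and averaging at least 5 CPM, the 3 nearest profiles, and neighbours next to a member. The rule also takes up to 3 genes per marker list by mean CPM, but of these only MPO, KRT18 and KRT8 are given here. Other genes were chosen after their values were seen. Alternatives were 3 other scalings, mitochondrial genes left out, DESeq2 1.42.0, limma 3.58.1 voom, 2 other filters, protein-coding genes only, 2 stricter thresholds, a replicate block and leaving out each library. A result for 1 gene of the T cell receptor route is not reported here.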

Additional observations from a re-analysis of the deposited data

How the results depend on the processing

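The direction of each of the 10 genes was the same in all 16 alternatives, and BCL3, NFKBIZ, RELB and REL were also called in each. The 2 stricter thresholds reuse the main fit, so the direction could not differ there. The members called higher numbered 4 when a 2-fold change was also required, with 4016 genes called in all, and 6 to 8 with 1 library left out. Members called lower numbered 1 with no composition factor, 0 to 1 with 1 library left out and 0 otherwise. TNFAIP3 lost its call in 7 alternatives, NFKB2 in 2 and NFKBIA and NFKBIE in 1 each (the 2-fold requirement), while NFKB1 gained one in 2 and RELA in 1. The causes were not tested. Upper-quartile factors moved the median of all genes to 0.05 and no composition factor to -0.03 (log2). For the pathway and marker lists, 528 of 576 recomputed counts stayed within 1.5 times the main count, and of 989 recomputed changes of single named genes 33 lost their call, 2 gained one and 0 reversed. A replicate block gave 8 members higher and 10072 genes called. The replicate numbers do not pair the libraries by label, and the correlation of same-numbered deviations across genes was 0.0261. With 2 libraries a group, calls near the threshold and genes under about 20 reads a library, such as NFKBIZ in wild-type, are limited by depth and replicate number. With 1 library left out, the lone library of a group was assumed to vary like the other group.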
